A study of Mus musculus with 6 samples.

Results

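Tendon cell genes were followed in RNA of a whole muscle, the tibialis anterior (TA), a fast muscle of the shin that ends in a long tendon. The 10 genes were chosen by symbol, with earlier results of these data known. They were Tnmd, Mkx, Col11a1, Col12a1, Thbs4, Comp, Chad, Kera, Angptl7 and Cilp2, and all 10 were present among the 11239 genes of the deposited tables. The samples were 3 TA muscles of aged C57BL/6 mice, aged 18 months, and 3 of young C57BL/6 mice, aged 3 months, with no treatment or genetic change named for either group. The comparison asked how muscle transcripts differ with age, and the series deals with muscle-derived G-CSF and the loss of muscle stem cells. No source used here gives the sex of the mice, how far along the tendon each muscle was cut or whether each sample was its own animal, so p-values measure only the spread between these samples, which may be technical.

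Tendon is a rope of type I collagen fibrils made by tenocytes, which are fibroblast-like cells set between the fibrils. The transcription factors scleraxis and mohawk (Mkx) drive the tenocyte programme, tenomodulin (Tnmd) is its late surface marker, and minor collagens, thrombospondins and leucine-rich repeat proteoglycans control how thick the fibrils become and how they are joined. In a whole muscle these transcripts can come from small amounts of tendon or of the junction between fibre and tendon. Aponeurosis, the tendon sheet inside the muscle, can be another source. Several of the genes are also used by cartilage, cornea or fibroblasts, and the source of the transcripts was not tested here. In bulk RNA, fewer tendon cells and less RNA per cell cannot be told apart.

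The upstream sequences of 3 of the genes are shown because these genes had the pattern that the results turn on, Tnmd as the defining marker and Angptl7 and Cilp2 as the genes with the greatest change on the log2(FPKM + 1) scale and the greatest ratio of means among the 10. They are the 250 bases before the RefSeq start on GRCm38.p6, given 5′ to 3′ on the strand of the gene, and capitals mark each E-box, the letters CANNTG, which basic helix-loop-helix factors such as scleraxis can bind.
Tnmd, chrX:133850758-133851007, plus strand: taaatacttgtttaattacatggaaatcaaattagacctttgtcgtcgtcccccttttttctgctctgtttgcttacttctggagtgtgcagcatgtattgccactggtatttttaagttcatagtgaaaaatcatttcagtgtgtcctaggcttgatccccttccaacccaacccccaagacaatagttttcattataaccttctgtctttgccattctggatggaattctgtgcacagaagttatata
Angptl7, chr4:148500463-148500712, minus strand: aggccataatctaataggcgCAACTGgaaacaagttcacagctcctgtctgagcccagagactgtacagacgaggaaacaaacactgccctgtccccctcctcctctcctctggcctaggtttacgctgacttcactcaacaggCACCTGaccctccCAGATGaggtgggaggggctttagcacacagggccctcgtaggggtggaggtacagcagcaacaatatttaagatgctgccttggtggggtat
Cilp2, chr8:69887393-69887642, minus strand: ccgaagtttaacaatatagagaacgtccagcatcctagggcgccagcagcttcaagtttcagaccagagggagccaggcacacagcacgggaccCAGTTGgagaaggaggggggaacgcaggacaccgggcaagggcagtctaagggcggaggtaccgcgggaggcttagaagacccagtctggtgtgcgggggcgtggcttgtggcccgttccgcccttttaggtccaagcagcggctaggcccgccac
Angptl7 held 3 E-boxes in this window, Cilp2 held 1 and Tnmd held 0. Of the 7 genes of the set with an upstream sequence in the table, 4 held at least 1 E-box, and 66.2% of the 32851 upstream sequences of the same length did so, with CANNTG reading alike on both strands. A match describes these letters in this window only. For Cilp2 and Tnmd the RefSeq start lies inside the gene positions given below. By those positions the whole Cilp2 window, with its E-box, lies within the gene, and the Tnmd window ends past the start of the gene.

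All 10 tendon cell genes were lower in aged than in young muscle, and for each of them all 3 aged libraries lay below all 3 young ones. Values are FPKM (fragments per kilobase of transcript, scaled by the mapped fragments of each library) as deposited, and changes are aged minus young on the log2(FPKM + 1) scale, with adjusted p-values from limma and the Benjamini-Hochberg method over the 7690 genes whose mean reached 1 FPKM. Calls were made at adjusted p-values under 0.05. Over all genes tested, 24.5% were called lower in aged muscle, 27.3% higher and 51.8% in either direction. All 3 aged libraries lay below the young ones for 29.0% of genes and above them for 33.8%. The members' median log2 change was −2.09, against 0.02 over all genes tested. Because the set was chosen with earlier results of these data known, its contrast with all genes is a description and not an independent test. Kera, Mkx, Col11a1 and Cilp2 were under 1 FPKM in every aged library and passed the minimum through the young ones, so the count was repeated with no minimum, where all 10 were again called lower, with adjusted p-values between 0.000330 and 0.0159. Of the 11175 genes tested that way, 19.5% were called lower, 21.2% higher and 40.8% in either direction.

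**Figure D1:**
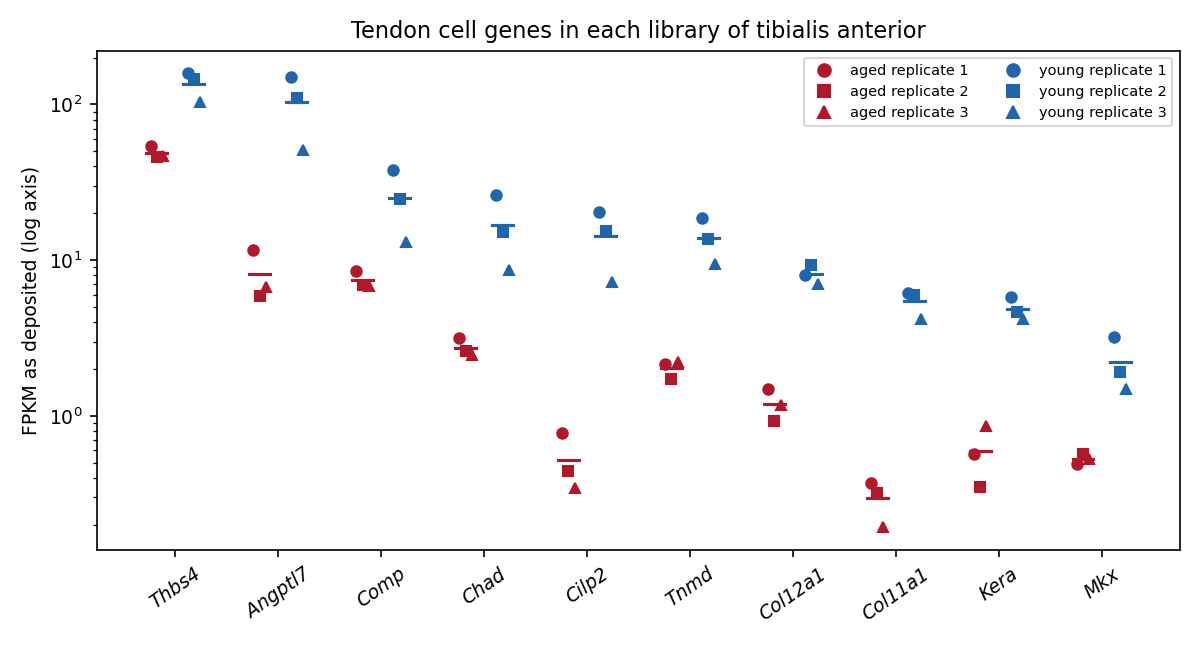
FPKM of the 10 tendon cell genes (log axis), with aged libraries in red left of young libraries in blue, symbols for replicates and bars for group means. For every gene the 3 aged points lie below the 3 young ones, with the narrowest gap at Comp, 8.49 against 13.0 FPKM.

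Tnmd, the membrane protein that marks mature tenocytes (chromosome X, 133850980 to 133865577), had 2.14, 1.72 and 2.23 FPKM in aged replicates 1, 2 and 3, against 18.6, 13.8 and 9.49 FPKM in young replicates 1, 2 and 3. The groups were far apart, and the lowest young library was 4.26 times the highest aged one. The mean was 6.87-fold lower in aged muscle, with a log2 change of −2.26 ± 0.20 (SE, adjusted p = 0.000199). Behind these values stood 775 fragments in the aged libraries and 5141 in the young ones.

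Mkx, the homeobox factor mohawk (chromosome 18, 6910459 to 7004780), had 0.494, 0.570 and 0.525 FPKM in aged muscle, against 3.23, 1.90 and 1.49 FPKM in young muscle. The aged libraries were close to each other, and young replicate 1 stood above the other young ones. With 164 fragments in aged and 672 in young libraries it was the least covered gene of the set in young muscle. Its log2 change of −1.03 ± 0.18 (adjusted p = 0.00285) was the smallest of the 10, but became −1.98 with voom on the recovered fragment counts. An annotated noncoding gene on the same strand shares 201 exon bases with Mkx and was not analysed here.

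The minor collagens had few transcripts in aged muscle. Col11a1, a chain of type XI collagen that seeds thin fibrils (chromosome 3, 114030540 to 114220718), had 0.373, 0.320 and 0.193 FPKM in aged libraries, against 6.12, 6.02 and 4.18 FPKM in young libraries. The mean was 18.4-fold lower in aged muscle, with a log2 change of −2.30 ± 0.13 (adjusted p = 3.34e-05; −4.20 with voom), and the lowest young library was 11.2 times the highest aged one, the widest gap among the 10. Col12a1, the fibril-associated type XII collagen found at tendon and junction surfaces (chromosome 9, 79598991 to 79718831), had 1.49, 0.924 and 1.17 FPKM in aged libraries, against 8.02, 9.28 and 7.0 FPKM in young ones. It was 6.78-fold lower (−2.05 ± 0.12, adjusted p = 3.87e-05), and it was the gene whose young libraries differed least, by 1.33-fold between the highest and lowest.

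Thbs4 and Comp encode pentameric thrombospondins, which bind collagen and help fibrils assemble. Thbs4 (chromosome 13, 92751590 to 92794818) had 53.9, 46.1 and 46.6 FPKM in aged muscle, against 158, 146 and 103 FPKM in young muscle. It had the highest level of the set in aged muscle and the smallest ratio of means, 2.78-fold lower (−1.44 ± 0.15, adjusted p = 0.000372). Comp, cartilage oligomeric matrix protein (chromosome 8, 70373558 to 70382066), had 8.49, 6.96 and 6.79 FPKM in aged libraries, against 37.9, 24.6 and 13.0 FPKM in young ones. Young replicate 3 came near the aged libraries, within 1.53-fold. Comp was 3.39-fold lower (−1.52 ± 0.32, adjusted p = 0.00618), the largest adjusted p of the 10, and its value over all annotated genes was 0.0446.

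Chad and Kera encode leucine-rich repeat proteins of the matrix. Chad, chondroadherin, a collagen- and integrin-binding protein of cartilage and tendon (chromosome 11, 94565047 to 94569127), had 3.17, 2.60 and 2.46 FPKM in aged muscle, against 26.4, 15.2 and 8.70 FPKM in young muscle. It was 6.11-fold lower (−2.12 ± 0.32, adjusted p = 0.00164), and its young libraries spread over 3.03-fold, more than those of any other member. Kera, keratocan, a proteoglycan best known from the cornea (chromosome 10, 97607205 to 97613688), had 0.568, 0.350 and 0.867 FPKM in aged libraries, against 5.82, 4.65 and 4.18 FPKM in young ones. It was 8.21-fold lower (−1.89 ± 0.14, adjusted p = 0.000116; −3.12 with voom). Here the aged libraries spread more, 2.47-fold, than the young ones, 1.39-fold.

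The 2 remaining genes encode secreted proteins and had the greatest changes on the log2(FPKM + 1) scale. With voom the greatest were instead those of Cilp2 (−4.72) and Col11a1 (−4.20). Angptl7, an angiopoietin-like protein (chromosome 4, 148495183 to 148500460), had 11.7, 5.88 and 6.73 FPKM in aged muscle, against 151, 109 and 50.9 FPKM in young muscle. It was 12.8-fold lower, with a log2 change of −3.44 ± 0.38 (adjusted p = 0.000464), on 5002 fragments in aged and 60474 in young libraries. Cilp2, a relative of cartilage intermediate layer protein (chromosome 8, 69880369 to 69887687), had 0.775, 0.439 and 0.343 FPKM in aged libraries, against 20.3, 15.3 and 7.22 FPKM in young ones. It was 27.5-fold lower, the greatest ratio of means in the set, with a log2 change of −3.23 ± 0.31 (adjusted p = 0.000261).

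Angptl7, Chad and Col12a1 each overlap a gene on the opposite strand, without a shared exon base, and no source used here gives the strandedness of the libraries. Mtor, which overlaps Angptl7 and encodes the growth-control kinase, had 27.0, 25.0 and 22.2 FPKM in aged muscle, against 25.8, 26.7 and 25.4 FPKM in young muscle (log2 change −0.07 ± 0.08, adjusted p = 0.460). Acsf2, an acyl-CoA synthetase gene that overlaps Chad, had 3.38, 3.46 and 2.91 FPKM in aged muscle, against 3.30, 4.50 and 3.05 FPKM in young muscle (−0.11 ± 0.12, adjusted p = 0.478). For both neighbours the groups overlapped, and neither was called. The gene that overlaps Col12a1, the antisense gene 4930562D21Rik, was not analysed here.

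The order of the members by level depends on the transcript length used. The lengths recovered from the FPKM values matched the mean over a gene's annotated transcripts for Thbs4, Comp and Col12a1, at 1813, 1002 and 5035 bases, against 3198, 2416 and 11511 bases for the longest transcript. Recomputed on the longest annotated transcript, levels in aged muscle were 27.7 ± 2.46 FPKM for Thbs4 and 8.10 ± 3.12 for Angptl7, followed by Comp, Chad and Tnmd between 3.08 and 2.03 FPKM (SD, n = 3). In young muscle on the same scale Angptl7 had 104 ± 50.2 FPKM and Thbs4 77.0 ± 16.5 FPKM, within their spread of each other (SD, n = 3). Chad, Cilp2, Tnmd and Comp followed there, between 16.8 ± 8.95 and 10.4 ± 5.16 FPKM, and these neighbours did not differ beyond their spread either. At the low end on this scale stood Mkx and Col11a1, with 0.160 ± 0.0115 and 0.102 ± 0.0320 FPKM in aged muscle, against 0.667 ± 0.274 and 1.88 ± 0.377 FPKM in young muscle. A length shared by all libraries leaves a gene's ratio of means between ages as it is, but it sets the FPKM level and so the minimum and the change on the log2(FPKM + 1) scale. On the longest transcript the means of Mkx and Col11a1 over the 6 libraries lie under 1 FPKM.

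The young libraries differed among themselves in these genes. The summed FPKM of the 10 genes was 83.1, 65.9 and 67.9 in aged replicates 1, 2 and 3, against 436, 346 and 209 in young replicates 1, 2 and 3. Young replicate 1 was the highest young library for 9 of the 10 genes, all but Col12a1, and young replicate 3 was the lowest for all 10. Aged replicate 1 was the highest aged library for 7 of the 10, and for 38.5% of all genes tested. Over all genes tested, young replicate 1 was highest for 42.4% and young replicate 3 lowest for 38.1%. The highest young library exceeded the lowest by a median of 2.06-fold over the 10 genes, against 1.12-fold over all genes tested. For 5 of them, Chad, Angptl7, Comp, Cilp2 and Mkx, it did so by more than 2-fold, as 1.77% of all genes did. In aged muscle the median spread of the members was 1.46-fold, against 1.17-fold over all genes.

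**Figure D2:**
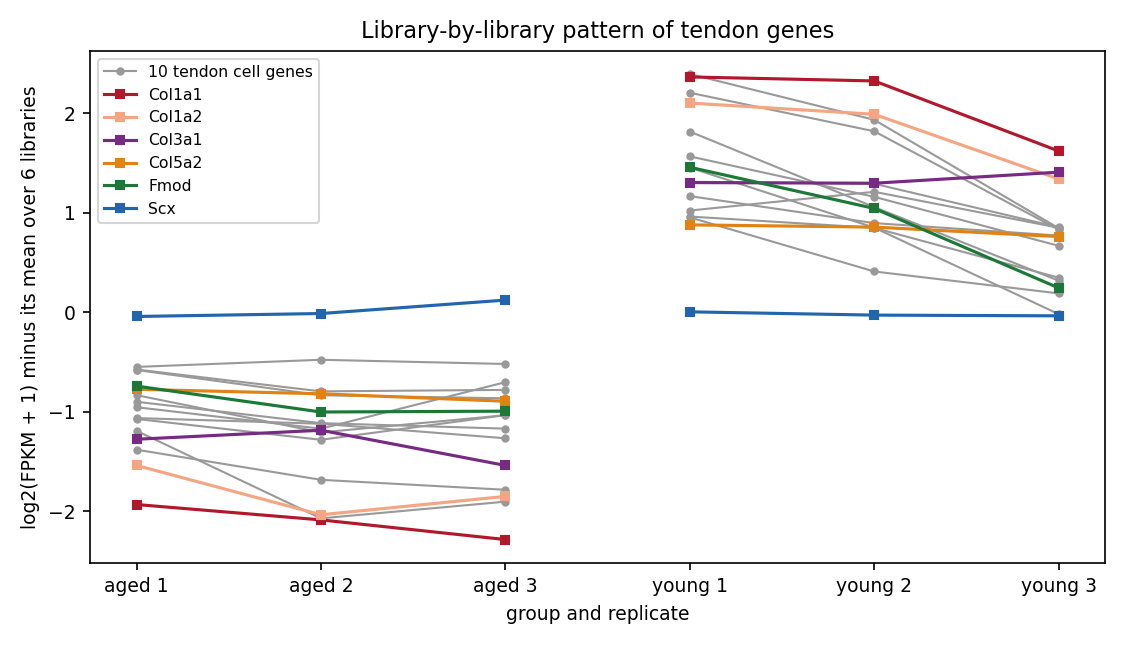
log2(FPKM + 1) of each gene minus its mean over the 6 libraries, by library, with aged libraries left; lines join the libraries of a group for each gene. All 10 grey tendon cell genes, Fmod, Col1a1, Col1a2 and Col5a2 are higher in young replicate 1 than in young replicate 3. Col3a1 and Col5a2 differ by at most 1.09-fold among young libraries, and Scx lies near 0 throughout.

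With any 1 library left out, all 10 genes were called lower, with a highest adjusted p of 0.0256, for Comp without young replicate 2. Without young replicate 1, the library richest in these transcripts, the log2 changes ran from −0.81 for Mkx to −3.11 for Angptl7. How much tendon was kept with each muscle is not given, and its part in the difference between ages was not tested.

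**Figure D3:**
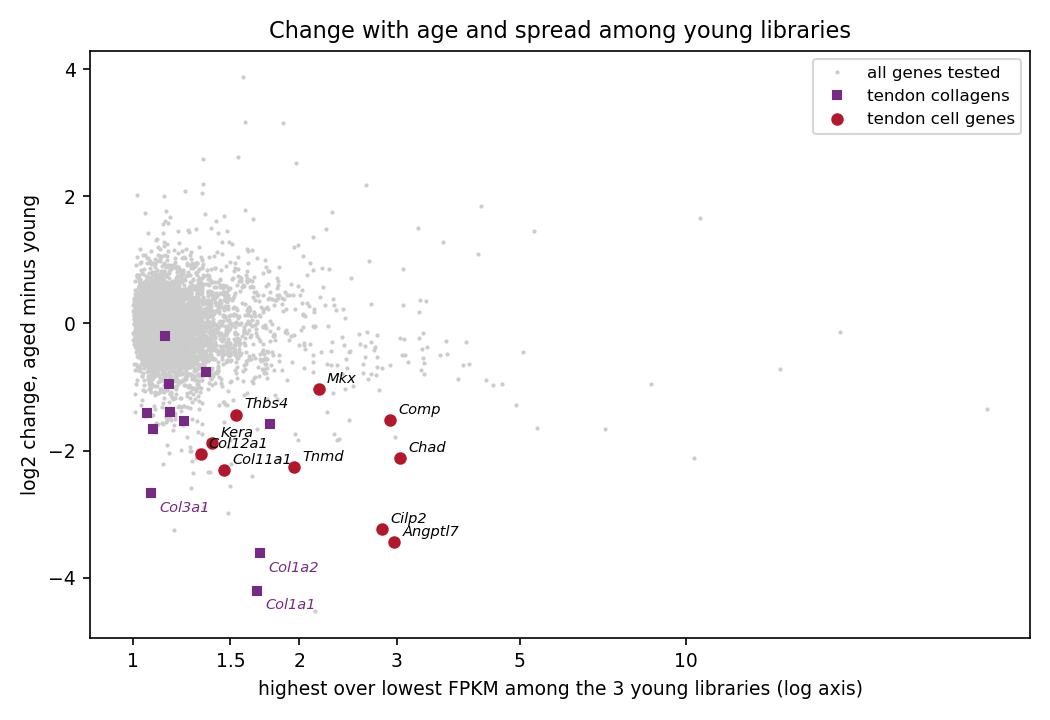
log2 change (aged minus young) against the ratio of the highest to the lowest young library (log axis), with all genes tested in grey, the 10 tendon cell genes in red and tendon collagens in purple; genes at 0 in a young library are not drawn. Cilp2 and Angptl7 combine a spread near 3-fold with a change below −3, while Col3a1 changed by −2.67 with a young spread of 1.08-fold.

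The ratio of means ran from 2.78-fold for Thbs4 to 27.5-fold for Cilp2, and each member was set against Tnmd to compare them within a library. Relative to Tnmd, taken as log2 of the ratio of FPKM in each library, Thbs4 stood at 4.65, 4.75 and 4.39 in aged muscle, against 3.09, 3.41 and 3.44 in young muscle, a difference of 1.28. Comp was likewise higher relative to Tnmd in aged muscle, by 1.10, and Mkx by 0.75. Cilp2 was lower relative to Tnmd, at −1.47, −1.97 and −2.70 in aged muscle against 0.13, 0.15 and −0.40 in young muscle, a difference of −2.01, and for Col11a1 the difference was −1.50. For these 5 genes the ratios of the groups did not overlap, with an exact two-sided permutation p = 0.10 each (0.18 adjusted over the 9 genes compared). That p is the smallest that 3 against 3 libraries can give. The share of all genes whose ratio to Tnmd separates the ages was not counted. Tnmd itself separated the ages, so non-overlap is not shown to be particular to these 5 genes. The ratios of Angptl7, Chad, Kera and Col12a1 overlapped between the ages, with differences of −0.87, 0.26, −0.38 and −0.04. No adjusted p of this test can pass 0.05 with 3 libraries in each group, so the differences between members are given as values.

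**Figure D4:**
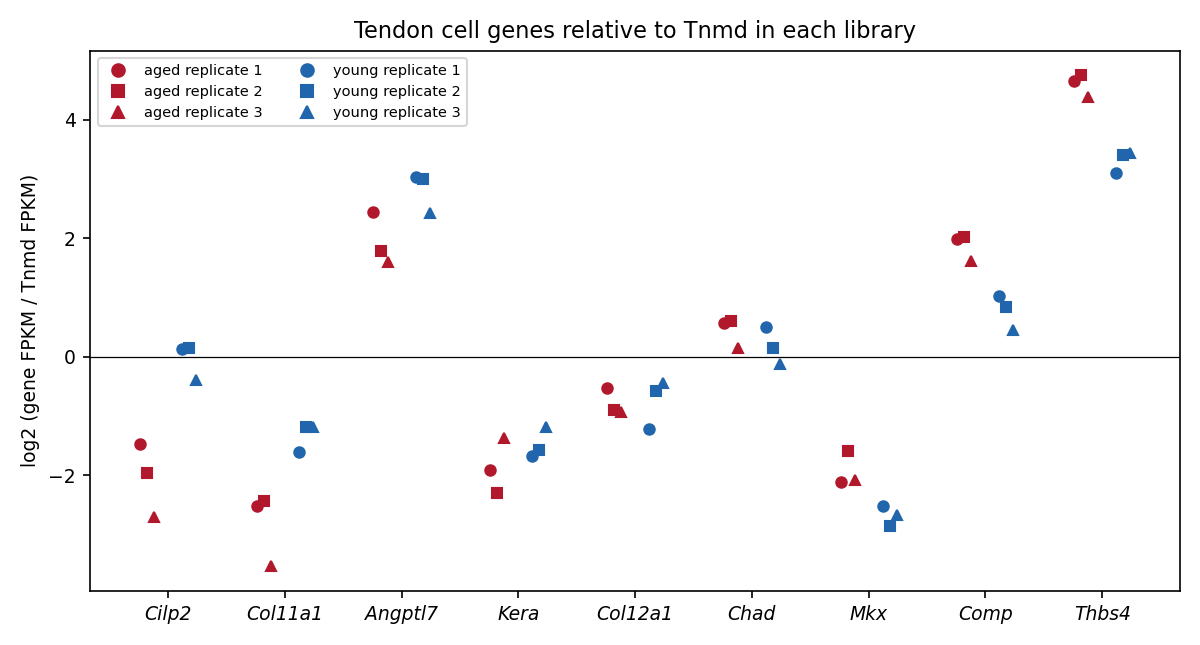
log2 ratio of FPKM of 9 tendon cell genes to that of Tnmd in each library, aged in red left of young in blue, ordered by the difference between ages. Cilp2 and Col11a1 lie lower, and Mkx, Comp and Thbs4 higher, in all 3 aged libraries than in all 3 young ones.

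Other genes of tendon were taken from lists by function. Of 11 tendon collagen genes tested, 10 were called lower, 0 higher, and 1 did not pass (median −1.54). Col1a1 and Col1a2, the 2 chains of type I collagen, had the largest changes, −4.20 ± 0.19 and −3.62 ± 0.20 (adjusted p = 1.75e-05 and 3.10e-05). Col1a1 had 36.6, 32.8 and 28.5 FPKM in aged muscle, against 737, 717 and 440 FPKM in young muscle. Col1a2 had 39.4, 27.6 and 31.5 FPKM in aged muscle, against 502, 464 and 295 FPKM in young muscle. For both, young replicate 1 was the highest young library and young replicate 3 the lowest, as for Tnmd, over a spread of 1.68-fold and 1.70-fold. Col3a1, the chain of type III collagen, had 38.3, 40.8 and 31.7 FPKM in aged muscle, against 234, 233 and 251 FPKM in young muscle. Its young libraries differed by 1.08-fold. Col5a2, a chain of type V collagen, was at 5.58 ± 0.276 FPKM in aged and 19.8 ± 0.891 FPKM in young muscle (SD, n = 3). Its young libraries stood in the order of Tnmd, but over a spread of only 1.09-fold. The widest young spread of the 11 was 1.77-fold in Col11a2, again highest in young replicate 1 and lowest in young replicate 3, and the narrowest 1.06-fold in Col5a1.

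Of 14 other tendon matrix genes tested, 10 were called lower and 0 higher (median −0.72). Fmod, fibromodulin, a proteoglycan that regulates fibril growth, had 37.5, 31.1 and 31.3 FPKM in aged muscle, against 176, 132 and 75.3 FPKM in young muscle, and its young libraries stood in the same order as those of Tnmd (log2 change −1.83 ± 0.27, adjusted p = 0.00141). Fibin, a secreted protein gene, changed by −1.19, Bgn, the proteoglycan biglycan, by −1.08 and Thbs3 by −0.90, all called. Dcn, decorin, the abundant proteoglycan of most connective tissue, had 149, 101 and 138 FPKM in aged muscle, against 198, 161 and 142 FPKM in young muscle, and did not pass (adjusted p = 0.0881). Cilp, the relative of Cilp2, did not pass either, at 9.70, 5.14 and 7.69 FPKM in aged against 7.95, 6.72 and 5.46 FPKM in young muscle (0.12 ± 0.20, adjusted p = 0.643). Of 7 collagen cross-linking genes tested, 6 were called lower and 0 higher (median −0.66). Lox, lysyl oxidase, had 3.02, 2.79 and 2.55 FPKM in aged muscle, against 12.6, 9.83 and 5.63 FPKM in young muscle (−1.39 ± 0.23, adjusted p = 0.00239), and Loxl2, Plod1 and Plod2 were called lower by changes of −0.91, −0.82 and −0.66.

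**Figure D5:**
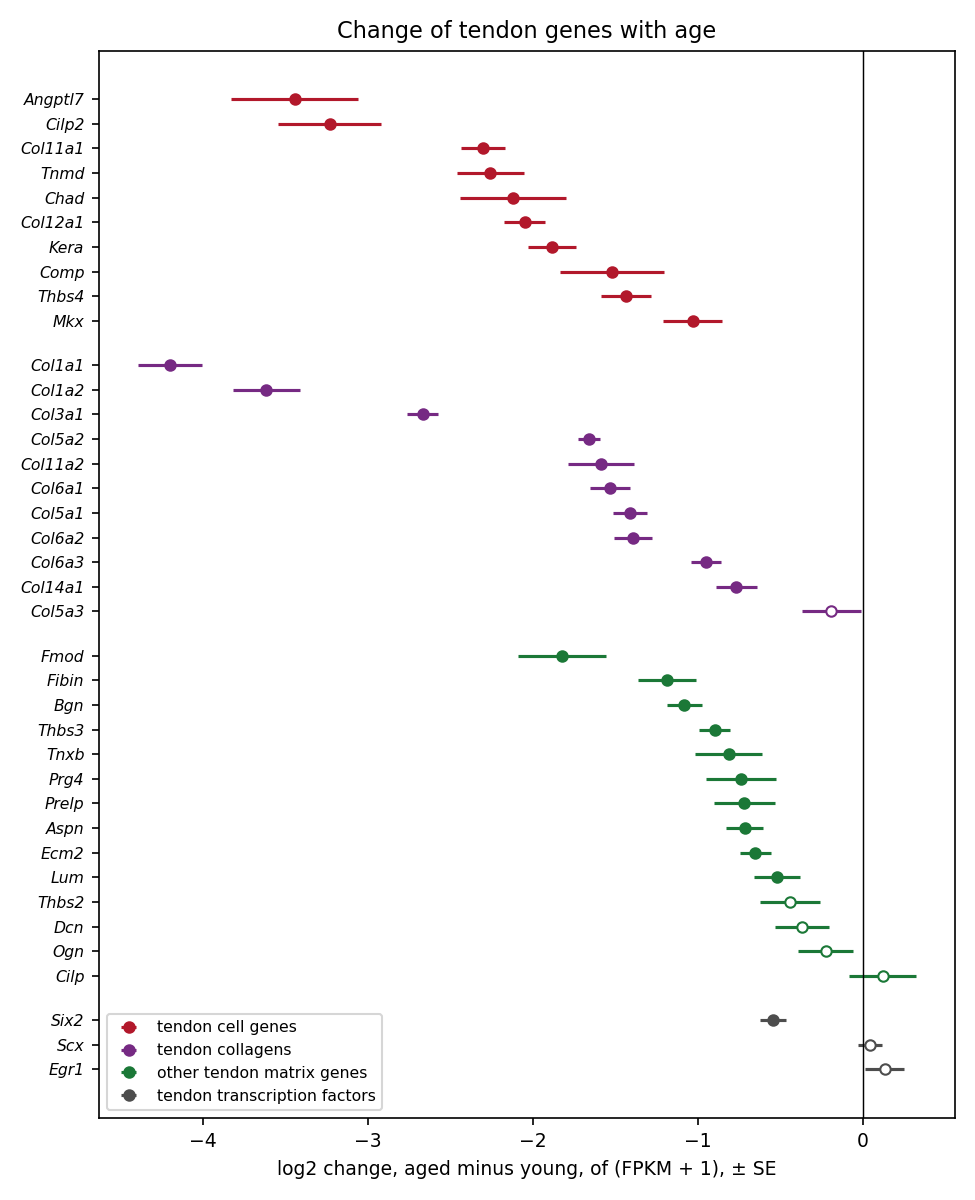
log2 change (aged minus young, ± SE) of the tendon cell genes and of tested tendon collagens, other tendon matrix genes and tendon transcription factors; filled points passed an adjusted p under 0.05. The 10 tendon cell genes run from −1.03 to −3.44, and Scx, Egr1 and Cilp are the points above 0.

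The transcription factors of tendon did not move as one. Scx, which encodes scleraxis, had 4.3, 4.41 and 4.94 FPKM in aged muscle, against 4.48, 4.35 and 4.33 FPKM in young muscle, with groups that overlap and a change of 0.04 ± 0.07 (adjusted p = 0.637). Scx lies within the span of Bop1 on the opposite strand, and Bop1 was not analysed here. Its direction turned when aged replicate 3 was left out. Egr1, an immediate early factor that can induce tendon collagen, was at 0.13 ± 0.12 and did not pass (adjusted p = 0.380). Six2, a homeobox gene, had 1.76, 1.58 and 1.46 FPKM in aged muscle, against 2.81, 2.88 and 2.69 FPKM in young muscle, and was called lower (−0.55 ± 0.08, adjusted p = 0.00121). Egr2, a relative of Egr1, was under the minimum, at 0.275 to 0.424 FPKM in aged and 0.373 to 0.738 FPKM in young muscle (adjusted p = 0.0878 with no minimum).

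TGF-beta signalling is a main inducer of scleraxis and of tendon matrix. Of 10 of its genes tested 3 were called lower and 3 higher (median 0.06), near the 24.5% lower and 27.3% higher over all genes tested. Tgfb2, a ligand, rose to 16.7, 13.1 and 18.5 FPKM in aged muscle, against 8.84, 8.04 and 9.92 FPKM in young muscle (0.77 ± 0.13, adjusted p = 0.00234). Tgfb3 and Smad4 were also called higher, by smaller changes (0.25 ± 0.06 and 0.16 ± 0.06, adjusted p = 0.0111 and 0.0482). With each young replicate left out in turn, 2 genes of this list were called higher. Tgfb1, another ligand, and Tgfbr3, the co-receptor betaglycan, were called lower (−0.55 ± 0.08 and −0.52 ± 0.11, adjusted p = 0.00128 and 0.00691). Mstn, the muscle growth inhibitor myostatin, was called lower too (−0.72 ± 0.18, adjusted p = 0.0128), but not when adjusted over all annotated genes (0.0921). At the junction of fibre and tendon, 3 of 6 tested genes were called lower and 0 higher, with a median of −0.18. Over all genes tested 24.5% were called lower. Col22a1, a collagen made at that junction, was among the 3. It had 6.93, 4.57 and 5.85 FPKM in aged muscle, against 9.75, 10.5 and 9.88 FPKM in young muscle (−0.72 ± 0.12, adjusted p = 0.00270). Its young libraries differed by 1.08-fold, without the order seen in Tnmd. Vcl and Tln2, which link the membrane to actin, were called lower by smaller changes of −0.40 and −0.28. Itga7, Tln1 and Ankrd1 did not pass, with changes of 0.003, −0.08 and 0.23 (adjusted p = 0.977, 0.350 and 0.580), and their groups overlapped.

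Markers of other tissues that a dissection can carry were read beside these results. Ibsp, bone sialoprotein, had 0.0287, 0.0586 and 0.183 FPKM in aged libraries, against 1.37, 4.06 and 3.42 FPKM in young ones (−1.79 ± 0.26, adjusted p = 0.00131). It passed the minimum through the young libraries, all aged ones being under 1 FPKM, and was called with no minimum too (adjusted p = 0.00459). Among young libraries Ibsp was lowest in replicate 1, where 9 of the 10 tendon cell genes were highest. The cartilage collagen gene Col2a1 had 0.0371, 0.0895 and 0.0625 FPKM in aged muscle, from 28 fragments, against 1.57, 1.13 and 0.862 FPKM in young muscle, from 520 fragments. Col2a1 was called lower with no minimum (−1.03 ± 0.11, adjusted p = 0.00157). The other cartilage genes were Acan, Matn3, Sox9 and Col9a2, all lower on average in aged muscle, of which the first 3 were called with no minimum (adjusted p = 0.0159, 0.0235 and 0.00916) and Col9a2 was not (0.0757). Acan and Matn3 rested on 7 and 2 fragments in aged libraries, against 177 and 144 in young ones. Col9a1 was called higher, at 1.43 ± 0.0874 FPKM in aged and 0.732 ± 0.179 FPKM in young muscle (SD, n = 3; 0.49 ± 0.10, adjusted p = 0.00513). Among young libraries Col2a1 and Matn3 were highest in replicate 1 and lowest in replicate 3, the order of Tnmd. Acan, Col9a1 and Col9a2 were instead lowest in young replicate 1, and Sox9 there lay between the others. Of the cartilage list 6 of 11 genes were listed, with summed levels of 2.28 to 2.47 FPKM in aged and 3.29 to 3.71 FPKM in young muscle, and Matn3 was at 0 in aged replicate 2. Of the bone list 7 of 8 were listed, with summed levels of 20.8 to 23.0 FPKM in aged and 21.4 to 25.3 FPKM in young muscle, mostly from Alpl, which was called higher (0.17 ± 0.06, adjusted p = 0.0433) and lost that call in 7 alternatives, among them without aged replicate 1 and without each young replicate in turn. Bglap2, an osteocalcin gene, was at 0 in all 3 aged libraries, and young libraries held 54 fragments of it. Sp7, an osteoblast factor, was called lower with no minimum, on 8 fragments in aged and 53 in young libraries, and Bglap, Dmp1 and Runx2 were not called there. The part of bone and cartilage tissue in the fall of Comp, Chad, Col11a1 and Cilp2 was not tested.

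Fibro-adipogenic progenitors are mesenchymal cells that lie among the fibres, and of 10 of their markers tested 7 were called lower and 0 higher, with a median of −0.49, and 4 were called without young replicate 1. The largest changes were in Mfap5, Pi16, Gsn and Dpt, at −1.23, −1.02, −0.76 and −0.53. Pi16 lost its call on leaving out aged replicate 2, aged replicate 3 or young replicate 1 (adjusted p between 0.0534 and 0.0860). Clec3b, Hsd11b1 and Ly6a did not pass (adjusted p = 0.0541, 0.287 and 0.298), and the change of Ly6a was upward, at 0.13 ± 0.10. The summed level of the progenitor markers was 437 to 647 FPKM in aged and 753 to 1023 FPKM in young muscle. It came mostly from Gsn, at 319 to 489 FPKM in aged and 578 to 818 FPKM in young muscle. Pdgfra, the defining receptor of these progenitors, was at 8.11 ± 0.921 FPKM in aged and 12.0 ± 0.892 FPKM in young muscle (SD, n = 3). Its log2 change was −0.52 ± 0.09 (adjusted p = 0.00304). The part of these progenitors in the tendon gene result was not tested. Keratinocyte markers of skin were near 0, at 0.0644 to 0.142 FPKM in aged and 0.0732 to 0.194 FPKM in young muscle for Lor and Dsp, the 2 of 6 that were listed. The fast fibre genes, 9 of 9 listed, summed to between 77590 and 81528 FPKM in aged and between 82770 and 88557 FPKM in young muscle (4 called lower, 2 higher), with Myh4, the fastest myosin, called higher (0.48 ± 0.07, adjusted p = 0.00141) and Myh2, Myh1 and Acta1 lower (−2.12, −0.68 and −0.40).

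Markers of other resident cells were read in the same way. The shares over all genes tested were 24.5% called lower and 27.3% called higher. Among macrophage markers 4 of 5 were called lower, Mrc1, C1qa, Cd163 and Csf1r, by changes of −0.68 to −0.79, with summed levels of 12.7 to 25.6 FPKM in aged and 28.3 to 43.5 FPKM in young muscle. Adgre1 did not pass, and its groups overlapped (−0.45 ± 0.22, adjusted p = 0.122). Cd163 alone of the 5 was called on leaving out aged replicate 2, aged replicate 3 or young replicate 1. Of 5 endothelial markers Pecam1, Tie1 and Cdh5 were called lower (−0.50, −0.34 and −0.33; 1 of the 3 without young replicate 2) and Kdr higher (0.81), with sums of 120 to 145 FPKM in aged and 148 to 168 FPKM in young muscle. Tek was not called (0.14 ± 0.06, adjusted p = 0.0937), but its 3 aged libraries lay above its 3 young ones. Of 4 adipocyte markers tested, Plin1, Adipoq and Fabp4 were called higher (0.68, 0.33 and 0.27) and Cfd lower (−0.64). Without young replicate 2, 1 of the 3 higher ones was called. With no minimum Lep was called higher (0.87, adjusted p = 0.00830) and Retn was not called (−0.09, adjusted p = 0.478). The sums were 78.3 to 80.7 FPKM in aged and 65.0 to 77.6 FPKM in young muscle. They came mostly from Fabp4, at 59.1 to 65.4 FPKM in aged and 47.0 to 54.7 FPKM in young muscle. The part of these cells in the tendon gene result was not tested.

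The 5 genes outside the set whose pattern over the 6 libraries was most like the median of the 10 members were Olfml3, Arrdc2, Mfap4, Rian and Mgp. Likeness was the root mean square difference of centred log2 values, 0.12 to 0.17 for these genes, against a median of 1.08 over all others tested. Olfml3, a secreted olfactomedin-like protein, was nearest, with 2.06, 2.02 and 2.03 FPKM in aged muscle, against 12.3, 10.9 and 8.82 FPKM in young muscle. Mfap4, a microfibril-associated protein, had 1.27, 0.876 and 0.772 FPKM in aged muscle, against 11.6, 9.81 and 7.05 FPKM in young muscle. Mgp, the matrix Gla protein that restrains calcification, was 3.65-fold lower in aged muscle. Rian is a noncoding RNA of an imprinted cluster and Arrdc2 an arrestin-domain gene, and neither is a matrix gene.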

How the data were processed

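RNA was sequenced from 3 aged and 3 young TA muscles. The authors deposited FPKM values, a table per library, of 11239 genes chosen by a rule not given in the sources used here. TRIzol extraction and Illumina libraries are stated per the labels' protocols. bcl2fastq 2.19, TopHat, DESeq2 and the mm9 build are named, with no roles, per the submitters' processing notes, but gene positions match GRCm38 (GENCODE M21, 89.0% of 11210 shared identifiers with the same start). Whole fragment counts were recovered from the FPKM values with a total per library and a length per gene (100% within 0.001 of a whole number), which gave 71984420 to 102135094 fragments per library. At that depth 3 fragments of a 1 kb transcript are 0.0294 to 0.0417 FPKM, for counting error only.

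Genes whose mean reached 1 FPKM were compared on log2(FPKM + 1) with limma 3.58.1 in R 4.3.3 (empirical Bayes with a trend, two-sided, Benjamini-Hochberg over 7690 genes); members under 1 FPKM in a group were also tested with no minimum. Libraries correlated at 0.993 to 0.996 within and 0.962 to 0.975 across groups, and no 2 replicates agreed within sampling noise. Same-numbered aged and young libraries correlated, after subtraction of group means, at 0.177, 0.182 and 0.136, and different-numbered ones at −0.192 to 0.0358. The numbers, taken from the sample titles, are possible pairs. The main model and the ratio test did not use them, and a replicate block was fitted as an alternative. The members and gene lists were chosen with earlier results of these data known. The rule for named genes took all members, up to 4 called genes with the largest change in each other list, every detected transcription factor, cartilage, bone and skin gene, the overlapping genes and the 5 most similar genes. Dcn, Cilp, Pdgfra, Col5a1 and Col11a2 were chosen after their values were seen. So were Itga7, Tln1, Ankrd1, Tgfb3, Smad4, Tek, Adgre1 and any other gene named outside this rule. The result of 1 list of cell markers is not reported here. Promoters are from RefSeq on GRCm38.p6. The methods were tested on simulated data. The simulation for limma gave every gene the same small spread between libraries, apart from counting error. It therefore does not show how the test treats genes as variable as the members. Alternatives were other pseudocounts, minimums, scalings, a replicate block, leaving out each library, voom on recovered counts and adjustment over 55450 annotated genes.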

Additional observations from a re-analysis of the deposited data

How the results depend on the processing

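The tendon cell genes gave 156 values under the alternatives, and in all 156 the log2 change stayed negative with an adjusted p under 0.05. With a minimum of 5 FPKM 6 members were tested and called lower, since the other 4 lay under it. On the replicate block 10 members were called lower and 0 higher, with 2001 and 2123 of all genes, and it changed no call of a member. With a pseudocount of 0.1 the log2 changes of the members with low aged values grew, to −4.48 for Cilp2, −3.82 for Col11a1, −2.90 for Kera and −1.81 for Mkx, so that Cilp2 and Col11a1 passed Angptl7 (−3.59). Adjusted over all annotated genes, 904 genes were called lower and 983 higher of all tested, and 36 lower and 4 higher of the genes of the other lists, against 55 and 11 over the genes tested; 6 of the other tendon matrix genes were then called lower, 1 TGF-beta gene higher and 3 progenitor markers lower, the last also numbering 4 with no minimum. Leaving out 1 library gave 7 to 11 list genes called higher. With a minimum of 5 FPKM 3 cross-linking genes were called lower.

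The log2 ratio to Tnmd changed sign with a pseudocount of 1 for Kera (0.37) and Col12a1 (0.21), and leaving out 1 library gave −0.28 to 0.11 for Col12a1. Changes near 0 also turned on leaving out 1 library, running from −0.00732 to 0.075 for Scx, −0.13 to 0.00028 for Mtor and −0.20 to 0.023 for Acsf2; the cause was not tested. Rescaling without the 20 highest genes moved the median of all genes to 0.08 and that of the members to −2.04. Depth limits Mkx most, at 164 fragments in aged muscle.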
